A study of Mus musculus with 6 samples.

Results

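The genes described here are 37 that take glucose into the cell, carry it through glycolysis and the pentose phosphate pathway, and route pyruvate to lactate, to the mitochondrion or back toward glucose. They were chosen by gene symbol from 24214 counted features, and all 37 were listed. The cells were 393P, an epithelial mouse lung adenocarcinoma (LUAD) line of C57BL/6 strain. 3 samples had been transfected with an empty vector (393P_vector) and 3 with a ZEB1 expression vector (393P_ZEB1), and all 6 were grown in the same medium with serum. ZEB1 is a transcription factor that drives epithelial-to-mesenchymal transition (EMT), and the comparison asks which transcripts differ between cells with and without the ectopic factor. The labels do not say whether the samples of a group came from separate transfections or clones, so the p-values measure the spread among these samples and cannot separate ZEB1 from other differences between the lines. In bulk RNA, fewer cells that express a gene and less RNA per cell cannot be told apart.

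Library totals ranged from 54442450 to 79158012 counts, and levels are in CPM, counts relative to a library total adjusted by normalization, on which 3 counts stood for 0.0361 to 0.0561 CPM. Zeb1 itself rose from 21.5 ± 0.44 to 51.7 ± 3.01 CPM (SD, n = 3 in each group), a log2 fold change of 1.26. It lies on chromosome 18, where the 396 tested genes had a median of 0.64. Relative to that median Zeb1 stood at 0.63 (edgeR adjusted p = 0.00271). The 20 tested genes nearest to Zeb1 had a median of 0.89, and 2 of them had a negative change. Epithelial markers fell for 7 of 8 tested, and mesenchymal markers rose for 7 of 8 (without 393P_vector replicate 3, 8 epithelial markers fell, and 7 mesenchymal markers rose and 1 fell). The lung lineage markers Nkx2-1 and Sftpc lay between 0 and 0.0561 CPM in all 6 samples, so the lung origin of the cells rests on the labels. Leukocyte markers summed to 3.31 to 5.6 CPM in 393P_vector samples and 2.0 to 2.28 CPM in 393P_ZEB1 samples, endothelial markers to 2.88 to 3.19 and 0.846 to 1.42 CPM, erythroid markers to at most 0.131 CPM, and muscle markers, mainly Tnnt2, to 67.1 to 101 CPM. Their part in the results below was not tested. 393P_vector replicate 3 stood apart from the other vector samples, with at least 2-fold differences in 8.71% and 9.6% of genes against 2.41% between replicates 1 and 2, and calls of the 37 genes that change without it are given both ways.

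Glycolysis splits glucose into pyruvate in the cytosol and yields ATP and NADH. Hexokinase and phosphofructokinase catalyse early steps that are irreversible in the cell, and the level of fructose-2,6-bisphosphate, set by the Pfkfb enzymes, tunes phosphofructokinase. Pyruvate is either reduced to lactate, which leaves through monocarboxylate transporters, or oxidised by pyruvate dehydrogenase, which the Pdk kinases switch off. The pentose phosphate pathway branches off at glucose-6-phosphate and supplies NADPH and ribose. Many of these steps have several isoenzymes with different tissue distributions, and many tumours maintain a high glycolytic flux even in the presence of oxygen.

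Transcripts of glucose import, of the main liver-type phosphofructokinase and of several later steps were lower in 393P_ZEB1 cells, whereas some alternative isoenzymes were higher. Of the 37 genes, 35 passed the filter on low counts and were tested. Ldhb and Fbp1 were too low to test, and Slc2a3 and Pdk4 passed the filter through the group in which they were high. In the quasi-likelihood test of edgeR, adjusted over all 13892 genes tested, 6 of the 35 (17.1%) rose, where 18.3% of all tested genes rose, and 11 of the 35 (31.4%) fell, where 19.3% of all tested genes fell. The 18 others did not pass the threshold of an adjusted p below 0.05. The 6 that rose were Pfkm, Pfkp, Aldoc, Pdk4, Pdha1 and Pcx. The 11 that fell were Slc2a1, Slc2a3, Hk2, Pfkl, Tpi1, Pfkfb3, Gapdh, Eno2, Slc16a3, Pdk3 and G6pdx. The median log2 fold change of the 35 genes was -0.17, beside -0.02 over all tested genes, and 22 of the 35 changes were negative. Samples of the groups did not overlap for 7 genes with 393P_ZEB1 above (26.3% of all tested genes) and 14 with 393P_ZEB1 below (26.5% of all tested genes). Without 393P_vector replicate 3, 8 of the 35 rose (26.2% of 14106 tested genes) and 14 fell (26.8%). The added genes were Pfkfb1 and Pdk2 among the former and Hk1, Pgk1 and Pkm among the latter.

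**Figure D1:**
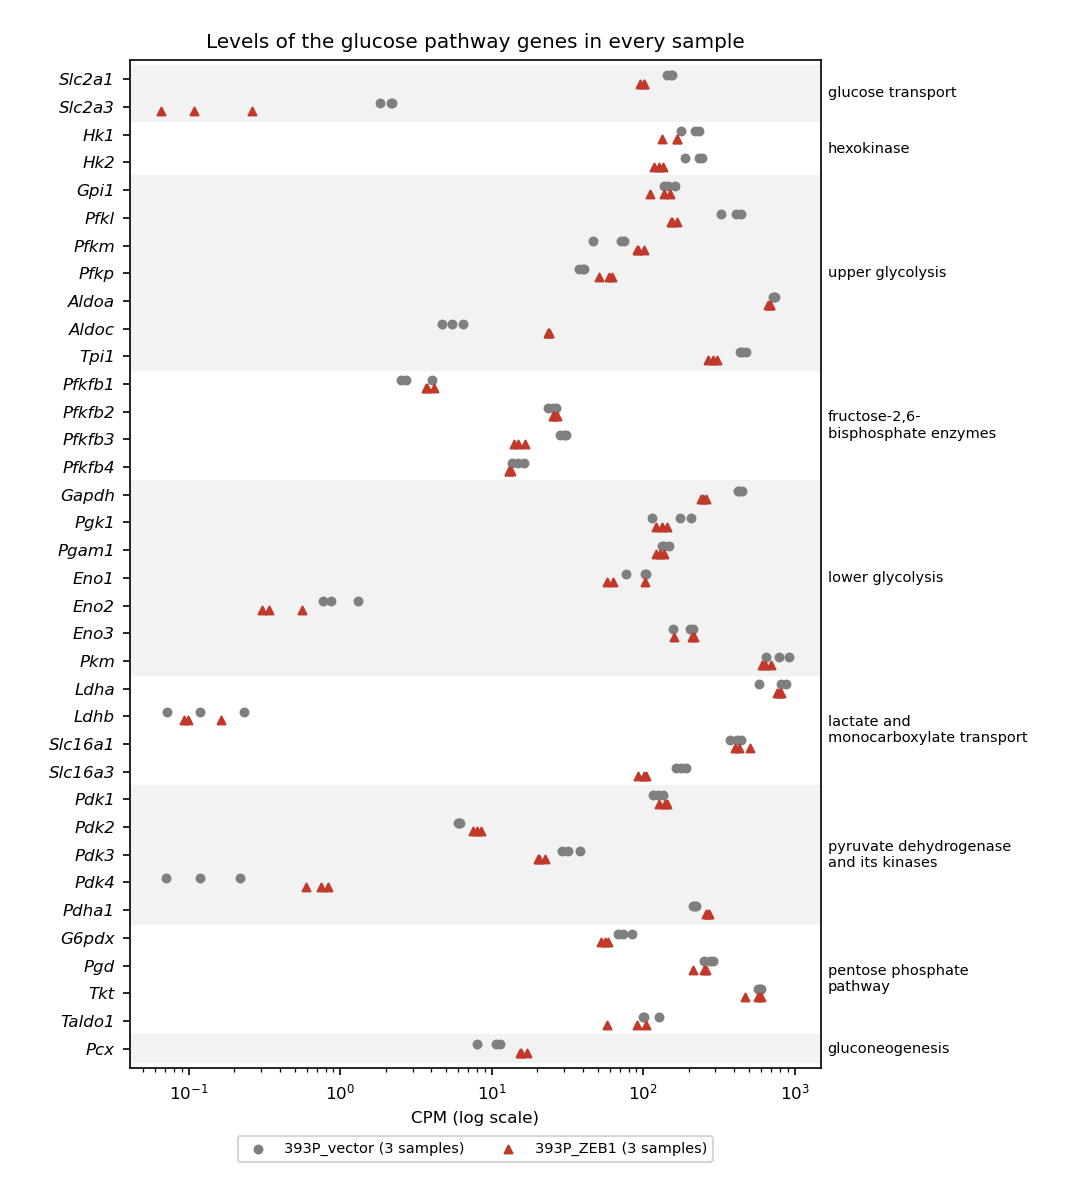
CPM on a log scale for each gene (rows, grouped by role) in the 3 393P_vector samples (grey circles) and the 3 393P_ZEB1 samples (red triangles), with Fbp1 left out because some of its counts were 0. Pfkl, Slc2a3, Pfkfb3, Gapdh, Tpi1 and Slc16a3 show separate groups with 393P_ZEB1 on the left, Aldoc, Pfkp and Pdk4 with 393P_ZEB1 on the right, and the levels span from below 0.1 to above 800 CPM.

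**Figure D2:**
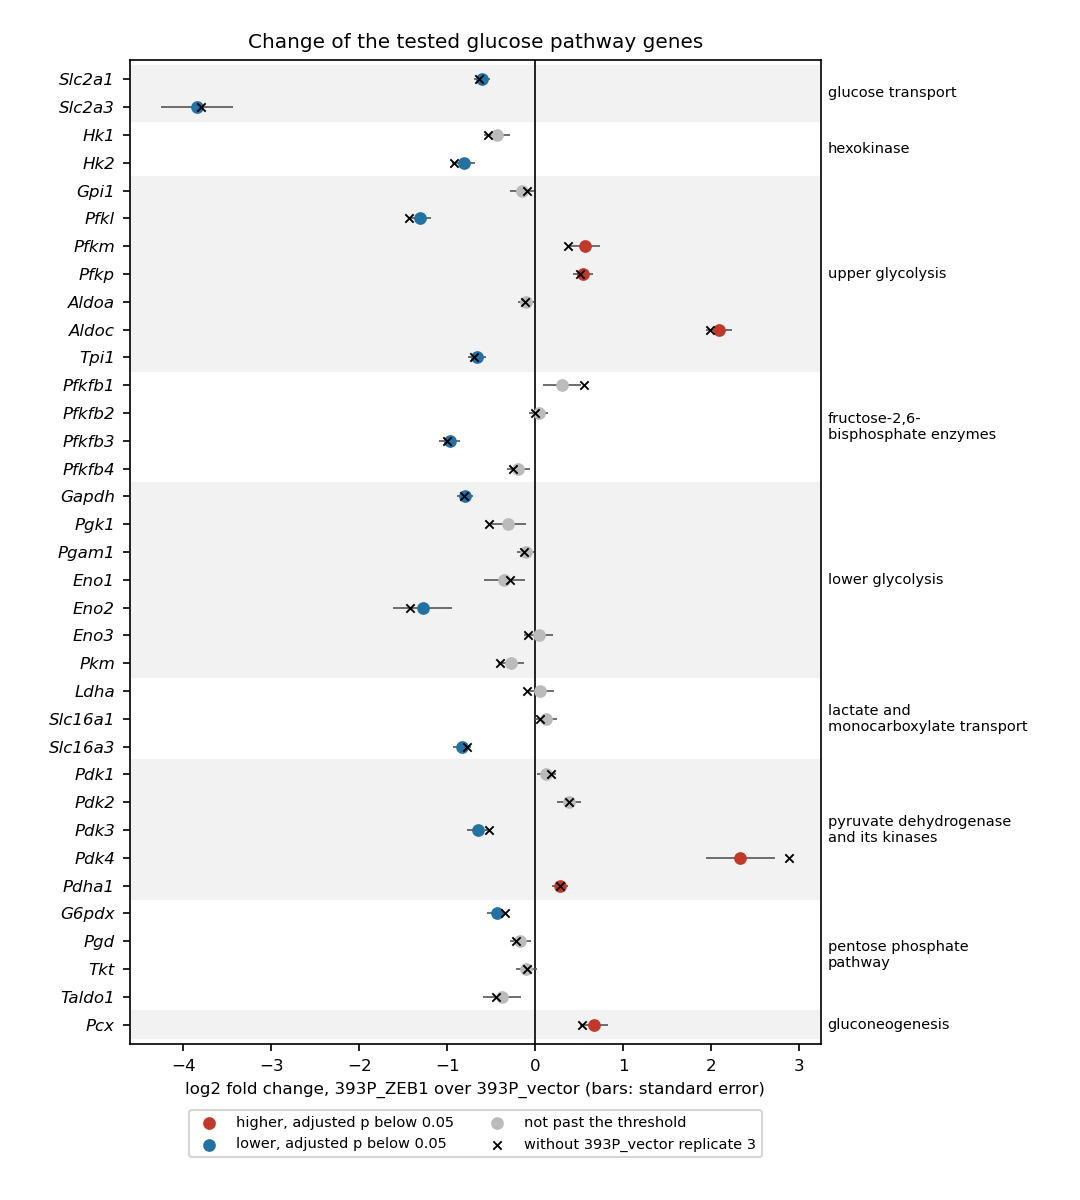
Log2 fold change of 393P_ZEB1 over 393P_vector with its standard error for the 35 tested genes, coloured by the edgeR call, with crosses for the fit without 393P_vector replicate 3. The 11 blue points lie between -3.84 (Slc2a3) and -0.43 (G6pdx), the 6 red points between 0.29 (Pdha1) and 2.33 (Pdk4), and the crosses for Pfkm, Pgk1 and Pdk4 lie apart from their points.

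Upstream sequences are shown for Slc2a1, Hk2 and Pfkfb3, which fell and hold the letters ACGTG on either strand (the core of the hypoxia-response element), and for comparison for Pfkl, the most abundant gene that fell by more than 2-fold, and Aldoc, which rose, neither of which holds them. Pfkm and Pcx, which rose and also hold the letters, are not shown. Each run is the 250 bases before the RefSeq transcript start (GRCm38.p6), 5′ to 3′ on the gene's strand, and capitals mark ACGTG or its complement CACGT.
Slc2a1, chr4:119108495-119108744, plus strand: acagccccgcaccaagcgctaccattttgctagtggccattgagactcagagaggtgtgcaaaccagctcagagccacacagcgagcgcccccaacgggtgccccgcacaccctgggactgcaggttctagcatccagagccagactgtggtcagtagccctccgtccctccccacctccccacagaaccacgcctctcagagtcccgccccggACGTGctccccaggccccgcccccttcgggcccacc
Hk2, chr6:82774455-82774704, minus strand: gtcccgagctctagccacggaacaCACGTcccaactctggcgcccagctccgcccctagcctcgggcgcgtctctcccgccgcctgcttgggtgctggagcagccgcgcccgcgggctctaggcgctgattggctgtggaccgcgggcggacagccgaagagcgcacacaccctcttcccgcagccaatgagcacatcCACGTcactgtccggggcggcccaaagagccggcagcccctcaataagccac
Pfkfb3, chr2:11553930-11554179, minus strand: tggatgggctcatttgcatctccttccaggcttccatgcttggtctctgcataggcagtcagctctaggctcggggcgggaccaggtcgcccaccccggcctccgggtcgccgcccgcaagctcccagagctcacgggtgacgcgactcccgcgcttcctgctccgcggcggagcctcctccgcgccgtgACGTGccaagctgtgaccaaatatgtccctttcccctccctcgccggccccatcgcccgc
Pfkl, chr10:78009808-78010057, minus strand: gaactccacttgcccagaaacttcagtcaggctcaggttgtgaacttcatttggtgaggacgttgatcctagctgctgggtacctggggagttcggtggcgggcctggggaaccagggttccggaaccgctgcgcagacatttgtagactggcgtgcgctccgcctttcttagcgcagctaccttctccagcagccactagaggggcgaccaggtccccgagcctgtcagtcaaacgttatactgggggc
Aldoc, chr11:78323948-78324197, plus strand: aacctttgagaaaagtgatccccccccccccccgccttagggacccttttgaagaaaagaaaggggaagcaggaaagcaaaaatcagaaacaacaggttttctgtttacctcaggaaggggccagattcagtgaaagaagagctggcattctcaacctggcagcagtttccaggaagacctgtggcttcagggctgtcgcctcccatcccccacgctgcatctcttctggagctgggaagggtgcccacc

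A promoter entry, from 250 bases before to 50 after the start, was found for 36 of the 37 genes. Slc2a3 had none. ACGTG stood on either strand in 14 of the 36 (38.9%), against 19.6% of all 32851 promoters of that length. By direction of change, 7 of the 10 lower genes with an entry held it (Slc2a1, Hk2, Pfkfb3, Gapdh, Slc16a3, Pdk3 and G6pdx). So did 2 of the 6 higher genes (Pfkm and Pcx) and 5 of the 18 that did not pass (Pgk1, Pgam1, Ldha, Slc16a1 and Pdk2). Ldha, which did not pass, held the most matches, 5. Counted from the start, the letters began at -36 in Slc2a1, at -60 in Pfkfb3, and at -226 and -52 in Hk2. In Gapdh and G6pdx they lay after the start, at 43 and 30. The E-box CACCTG, a sequence that ZEB factors bind, was in none of the 16 promoters of genes that passed the test and in 3 of the 36 (8.33%, Hk1, Pgd and Fbp1), against 20.2% of all promoters. The E-box CACGTG, each copy of which also counts as an ACGTG match, was in 5 of the 36 (13.9%), against 7.15% of all promoters, and in none of the lower genes. These are letter matches in a short window, with no measurement of binding. The comparison with all promoters was not matched for GC content. For some genes the nearest entry lay away from the counted start, by 13205 bases for Pfkfb2, 583 for Slc16a3 and 281 for G6pdx.

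Both facilitative glucose transporters of the group fell. Slc2a1 (chromosome 4, 119108745 to 119137329, GRCm38, plus strand), which encodes GLUT1, the widespread basal transporter, was counted at 154, 154 and 143 CPM in 393P_vector samples and at 94.7, 101 and 101 CPM in 393P_ZEB1 samples. Every vector sample lay above every ZEB1 sample, and the level was 1.52-fold lower, a log2 fold change of -0.60 (standard error, SE, 0.09, edgeR adjusted p = 0.00169). Slc2a3 (chromosome 6, 122727809 to 122742745, minus strand) encodes GLUT3, a high-affinity transporter known from neurons. It stood at 2.17, 1.84 and 2.2 CPM in 393P_vector samples and at 0.262, 0.108 and 0.0655 CPM in 393P_ZEB1 samples, where the lowest was near the level of 3 counts. Its log2 fold change was -3.84 (SE 0.41, edgeR adjusted p = 0.000265), the largest decrease among the 35 genes, although it made up 0.888% ± 0.111 (SD, n = 3) of the summed counts per kilobase of the pair even in 393P_vector cells. Summed per kilobase, the pair came to 59.2 ± 2.42 CPM in 393P_vector cells and 38.6 ± 1.39 CPM in 393P_ZEB1 cells (SD, n = 3).

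Hexokinases trap glucose as glucose-6-phosphate. Hk2 (chromosome 6, 82725027 to 82774454, minus strand), the inducible isoenzyme that many tumours express, fell. It was at 246, 235 and 188 CPM in 393P_vector samples and at 118, 127 and 136 CPM in 393P_ZEB1 samples, groups that did not overlap. The level was 1.76-fold lower, a log2 fold change of -0.81 (SE 0.13, edgeR adjusted p = 0.00209). Hk1, the isoenzyme found in most tissues, was at 218, 235 and 178 CPM and at 132, 168 and 168 CPM, also without overlap, and did not pass (log2 fold change -0.43, SE 0.15, edgeR adjusted p = 0.0519). Hk1 lay close to the threshold. It passed without 393P_vector replicate 3, the lowest vector sample (-0.54, edgeR adjusted p = 0.00173), and also in all samples with upper quartile factors (edgeR adjusted p = 0.0441), in the DESeq2 Wald test (adjusted p = 0.0494) and in limma voom with sample weights (adjusted p = 0.00064), whereas relative to the median of its chromosome it was at -0.14 (edgeR adjusted p = 0.524). As a share of the pair's summed counts per kilobase, Hk2 was 48.0%, 45.0% and 46.3% in 393P_vector samples and 42.2%, 38.1% and 39.8% in 393P_ZEB1 samples.

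Among isoenzymes, the largest shift in percentage points was from the liver type to the muscle and platelet types of phosphofructokinase, the enzyme of the committed step. Pfkl (chromosome 10, 77986949 to 78009796, minus strand), the liver type, was counted at 410, 445 and 326 CPM in 393P_vector samples and at 155, 153 and 167 CPM in 393P_ZEB1 samples. It fell 2.49-fold, a log2 fold change of -1.31 (SE 0.14, edgeR adjusted p = 0.000214), and stayed past the threshold in all 6 fits that left out 1 sample. Pfkp (chromosome 13, 6579874 to 6648724, minus strand), the platelet type, rose from 40.4, 40.3 and 37.7 CPM to 51.3, 59.4 and 62.0 CPM, 1.46-fold (log2 fold change 0.55, SE 0.11, edgeR adjusted p = 0.0074). Pfkm (chromosome 15, 98092589 to 98132447, plus strand), the muscle type, was at 71.8, 74.4 and 46.7 CPM in 393P_vector samples and at 91.6, 92.0 and 101 CPM in 393P_ZEB1 samples. Its log2 fold change of 0.56 (SE 0.18, edgeR adjusted p = 0.0421) passed narrowly. The call for Pfkm was lost without 393P_vector replicate 1 or any of the 393P_ZEB1 replicates (edgeR adjusted p between 0.0502 and 0.123), and without 393P_vector replicate 3, the lowest sample, the change was 0.38 (edgeR adjusted p = 0.0028).

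In counts per kilobase, Pfkl made up 77.4% ± 0.714 of the 3 phosphofructokinase genes in 393P_vector cells and 48.3% ± 0.879 in 393P_ZEB1 cells (SD, n = 3). Over the same samples Pfkm went from 15.3% ± 1.46 to 35.3% ± 0.246, and Pfkp from 7.33% ± 0.951 to 16.4% ± 1.07. The share of Pfkp was 7.03%, 6.56% and 8.39% in 393P_vector samples and 15.2%, 17.3% and 16.6% in 393P_ZEB1 samples, an exact two-sided permutation p of 0.1, which is the smallest that 3 samples against 3 allow (0.114 after adjustment over the 8 families compared). The sum of the 3 genes per kilobase was 138 ± 21.8 CPM in 393P_vector cells and 88.7 ± 4.74 CPM in 393P_ZEB1 cells (SD, n = 3).

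**Figure D3:**
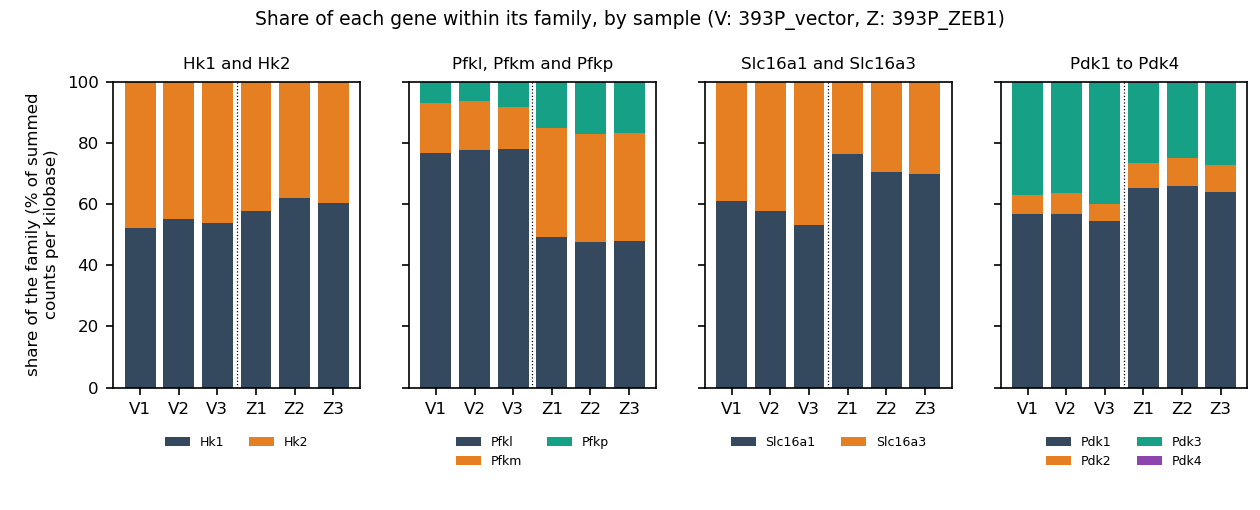
Share of each gene in the summed counts per kilobase of its family, in percent, for every sample (V1 to V3, 393P_vector; Z1 to Z3, 393P_ZEB1). Pfkl takes 76.6% to 78.0% of its family in 393P_vector samples and 47.7% to 49.3% in 393P_ZEB1 samples, Slc16a3 38.9% to 46.8% and 23.7% to 30.2%, and Pdk4 is below 1% throughout.

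In the rest of upper glycolysis, Aldoc (chromosome 11, 78324198 to 78326760, plus strand), the brain-type aldolase, had the smallest adjusted p of the 35 genes. It was at 5.48, 6.49 and 4.73 CPM in 393P_vector samples and at 23.5, 23.7 and 23.9 CPM in 393P_ZEB1 samples, 4.26-fold higher (log2 fold change 2.09, SE 0.15, edgeR adjusted p = 3.0e-05). Aldoa, the main aldolase, was the most abundant gene of this group, at 728, 746 and 717 CPM and at 686, 686 and 670 CPM. The groups of Aldoa did not overlap, but the log2 fold change of -0.10 (SE 0.09) did not pass (edgeR adjusted p = 0.425). Aldoc therefore remained a minor part of the aldolase pair in counts per kilobase, 0.807% ± 0.111 in 393P_vector cells and 3.59% ± 0.0798 in 393P_ZEB1 cells (SD, n = 3). Tpi1 (chromosome 6, 124810592 to 124814296, minus strand), which interconverts the triose phosphates, fell from 452, 478 and 438 CPM to 269, 290 and 305 CPM, 1.58-fold (log2 fold change -0.66, SE 0.10, edgeR adjusted p = 0.00164). Gpi1, which isomerises glucose-6-phosphate, ranged from 138 to 161 CPM in 393P_vector samples and from 111 to 151 CPM in 393P_ZEB1 samples, and did not pass (log2 fold change -0.15).

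Of the 4 bifunctional enzymes that make and break down fructose-2,6-bisphosphate, Pfkfb3 passed the test. Pfkfb3 (chromosome 2, 11471431 to 11553929, minus strand), whose kinase activity strongly outweighs its phosphatase activity, was at 29.9, 30.8 and 28.4 CPM in 393P_vector samples and at 13.96, 14.8 and 16.7 CPM in 393P_ZEB1 samples. It fell 1.96-fold, a log2 fold change of -0.97 (SE 0.12, edgeR adjusted p = 0.000533), and was called in all 6 fits that left out 1 sample. Pfkfb2, which had the highest counts of the 4 in 393P_ZEB1 cells, was at 23.7 to 26.7 CPM and 25.4 to 26.8 CPM, with a log2 fold change of 0.04 (SE 0.11, edgeR adjusted p = 0.802). Pfkfb4 (13.6 to 16.4 CPM and 12.9 to 13.4 CPM) had a log2 fold change of -0.19 and did not pass. Pfkfb1, the liver and muscle form, was at 2.53, 2.72 and 4.04 CPM and at 4.13, 3.73 and 3.68 CPM. Its log2 fold change was 0.31 (edgeR adjusted p = 0.295) in all samples and 0.55 (edgeR adjusted p = 0.0137) without 393P_vector replicate 3, and it also passed in limma voom with sample weights (0.52, adjusted p = 0.00741).

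In lower glycolysis, of the 7 genes from glyceraldehyde-3-phosphate to pyruvate, 2 fell and 5 did not pass. Gapdh (chromosome 6, 125161852 to 125165583, minus strand), the dehydrogenase of this segment and a common reference gene for normalising expression, was at 451, 432 and 426 CPM in 393P_vector samples and at 248, 262 and 242 CPM in 393P_ZEB1 samples. It fell 1.74-fold, a log2 fold change of -0.80 (SE 0.09, edgeR adjusted p = 0.00043), with no overlap. Eno2 (chromosome 6, 124760055 to 124769509, minus strand), the neuronal enolase, was low throughout, at 1.31, 0.867 and 0.77 CPM and at 0.336, 0.306 and 0.557 CPM. Its log2 fold change was -1.28 (SE 0.34, edgeR adjusted p = 0.0202), and the call was lost without 393P_vector replicate 1, 393P_ZEB1 replicate 1 or 393P_ZEB1 replicate 2 (edgeR adjusted p between 0.0631 and 0.0824). Pkm, pyruvate kinase, was the most abundant gene of the segment by CPM, at 788, 923 and 643 CPM in 393P_vector samples and at 608, 639 and 700 CPM in 393P_ZEB1 samples. Pgk1, which makes ATP from 1,3-bisphosphoglycerate, was at 175, 206 and 114 CPM and at 144, 121 and 134 CPM. The groups overlapped for both genes through 393P_vector replicate 3. With all samples Pkm and Pgk1 had log2 fold changes of -0.27 and -0.31 (edgeR adjusted p = 0.186 and 0.271), and without that replicate -0.40 and -0.52 (edgeR adjusted p = 0.00556 and 0.00125). Both also passed in limma voom with sample weights (adjusted p = 0.00565 and 0.00104). Pgam1, the mutase, did not pass (122 to 149 CPM over all samples, log2 fold change -0.11).

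The enolases were counted less clearly than the other genes. Eno1, the widespread enolase, was at 77.3, 105 and 103 CPM in 393P_vector samples and at 57.4, 63.2 and 103 CPM in 393P_ZEB1 samples, with a log2 fold change of -0.35 (SE 0.24, edgeR adjusted p = 0.279). Without 393P_ZEB1 replicate 3, the highest of its group, the value was -0.64 and passed (edgeR adjusted p = 0.0403). Gm5506, a near-identical copy of Eno1, was listed at a locus of its own on chromosome 18 with 4305, 4498 and 6742 counts in 393P_vector samples and 3699, 3473 and 3464 in 393P_ZEB1 samples, beside 4378, 6172 and 8537 and 3072, 3511 and 6296 for Eno1. The symbol Gm5506 was also listed a second time on chromosome 4, from 150237324 to 150248873, inside Eno1 and on its strand, with 4319, 6090 and 8310 counts and 3031, 3469 and 6264 counts, close to those of Eno1 itself. How reads that match several of these entries were assigned is not given in the sources used here, so the counts of all 3 entries are uncertain. Added together, Eno1 and the copy on chromosome 18 had a log2 fold change of -0.33 (edgeR adjusted p = 0.0895). Eno3, the muscle enolase, was at 203, 214 and 156 CPM and at 160, 211 and 218 CPM, with a log2 fold change of 0.04. In counts per kilobase as listed, Eno3 exceeded Eno1 in every sample, while Eno2 stayed below 0.3% of the 3 enolase genes. Eno3 made up 63.9% to 75.2% in 393P_vector samples and 71.1% to 79.6% in 393P_ZEB1 samples. These shares rest on the uncertain counts of Eno1 and leave out those of Gm5506, so the order of Eno3 and Eno1 is also uncertain.

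At the exit to lactate, Ldha, which reduces pyruvate to lactate, was at 809, 879 and 583 CPM in 393P_vector samples and at 818, 762 and 788 CPM in 393P_ZEB1 samples, the highest levels of this group. It did not pass (log2 fold change 0.06, SE 0.16, edgeR adjusted p = 0.796), and the sign turned to -0.10 without 393P_vector replicate 3. Ldhb, the subunit of heart-type lactate dehydrogenase, was listed at 0.0722 to 0.23 CPM and at 0.0934 to 0.162 CPM, close to the level of 3 counts, and was not tested. Slc16a3 (chromosome 11, 120948484 to 120959000, plus strand) encodes MCT4, an exporter of lactate in glycolytic cells. It fell from 165, 177 and 191 CPM to 92.2, 105 and 102 CPM, 1.78-fold (log2 fold change -0.83, SE 0.11, edgeR adjusted p = 0.0006). Slc16a1, which encodes MCT1 and carries lactate in either direction, was at 444, 417 and 374 CPM and at 510, 428 and 406 CPM and did not pass (log2 fold change 0.12, edgeR adjusted p = 0.487). In counts per kilobase the share of Slc16a3 in the pair was 42.6% ± 3.94 in 393P_vector cells and 27.8% ± 3.57 in 393P_ZEB1 cells (SD, n = 3), without overlap. The exact two-sided permutation p was 0.1 (0.114 adjusted).

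The kinases of pyruvate dehydrogenase moved in different directions. Pdk4 (chromosome 6, 5483351 to 5496278, minus strand), the isoform known from fasting and fatty acid oxidation, was at 0.0706, 0.119 and 0.217 CPM in 393P_vector samples and at 0.747, 0.828 and 0.59 CPM in 393P_ZEB1 samples. It rose, with a log2 fold change of 2.33 (SE 0.39, edgeR adjusted p = 0.00267), from a level of a few counts to one that was still low. Pdk3 (chromosome X, 93764616 to 93832095, minus strand) fell from 31.8, 29.0 and 38.0 CPM to 22.5, 20.1 and 20.6 CPM, 1.56-fold (log2 fold change -0.64, SE 0.13, edgeR adjusted p = 0.00759). Pdk1, a known target of hypoxia signalling and the most abundant of the 4 kinases, ranged from 116 to 135 CPM in 393P_vector samples and from 127 to 144 CPM in 393P_ZEB1 samples and did not pass (log2 fold change 0.13). Its share of the kinases per kilobase was 55.9% ± 1.22 and 65.0% ± 0.954 (SD, n = 3), without overlap (exact two-sided permutation p = 0.1, 0.114 adjusted). Pdk2 was at 5.99, 6.2 and 6.12 CPM and at 7.94, 8.49 and 7.47 CPM, with no overlap. Its log2 fold change of 0.38 did not pass with all samples (edgeR adjusted p = 0.0539) and passed without 393P_vector replicate 3 (0.39, edgeR adjusted p = 0.0277), in the DESeq2 Wald test (adjusted p = 0.0249) and in limma voom with sample weights (adjusted p = 0.00772).

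Pdha1, the catalytic subunit that these kinases phosphorylate, had the highest counts of the group. It was at 214, 224 and 218 CPM in 393P_vector samples and at 272, 260 and 270 CPM in 393P_ZEB1 samples, without overlap, 1.22-fold higher (log2 fold change 0.29, SE 0.09, edgeR adjusted p = 0.0389). The call for Pdha1 held without 393P_vector replicate 3 (edgeR adjusted p = 0.00776) and was lost when any other sample was left out (edgeR adjusted p between 0.0787 and 0.135).

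In the pentose phosphate pathway, G6pdx (chromosome X, 74409486 to 74429161, minus strand) encodes glucose-6-phosphate dehydrogenase, the first and NADPH-producing step. It was at 73.2, 68.3 and 84.7 CPM in 393P_vector samples and at 56.0, 58.5 and 52.8 CPM in 393P_ZEB1 samples. It fell 1.35-fold (log2 fold change -0.43, SE 0.12, edgeR adjusted p = 0.0215). The call for G6pdx was lost without 393P_vector replicate 1 or any of the 393P_ZEB1 replicates (edgeR adjusted p between 0.0577 and 0.102), and G6pdx lies within the opposite-strand gene Ikbkg, which rose (log2 fold change 0.43, edgeR adjusted p = 0.011). Tkt, transketolase, was the most abundant gene of this branch, at 572, 593 and 600 CPM in 393P_vector samples and at 472, 595 and 576 CPM in 393P_ZEB1 samples, overlapping groups with a log2 fold change of -0.10 (SE 0.12, edgeR adjusted p = 0.527). Pgd, the second NADPH-producing dehydrogenase, had a log2 fold change of -0.17, and Taldo1, transaldolase, one of -0.38, and neither passed (edgeR adjusted p = 0.29 and 0.215).

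For gluconeogenesis, Pcx (chromosome 19, 4510472 to 4621752, plus strand), pyruvate carboxylase, which makes oxaloacetate from pyruvate, was at 10.7, 11.4 and 8.01 CPM in 393P_vector samples and at 15.5, 17.0 and 15.3 CPM in 393P_ZEB1 samples. It rose 1.59-fold (log2 fold change 0.67, SE 0.16, edgeR adjusted p = 0.0144), and the call was lost without 393P_ZEB1 replicate 2 (edgeR adjusted p = 0.0598). Fbp1, which opposes phosphofructokinase, had 0 to 0.0353 CPM in any sample, below the level of 3 counts, and was not tested.

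Other overlaps between counted intervals touch several of these values. Pfkm shares 981 bases with the opposite-strand gene Senp1, which fell (log2 fold change -1.08), and Pfkp shares 276 bases with Pitrm1, which rose (log2 fold change 0.32). Pcx shares 3884 bases with Lrfn4 and Pfkfb2 shares 4731 bases with Yod1, and neither of these partners passed. Pdha1 shares 1133 bases with Map3k15, which rose (log2 fold change 3.765). The mean count of Map3k15 was 56.2, beside 14810 for Pdha1. That of Pitrm1 was 17300, beside 2937 for Pfkp, and that of Senp1 was 5900, beside 4750 for Pfkm. Lrfn4 had a mean of 4350, beside 775.8 for Pcx, and Yod1 one of 807, beside 1569 for Pfkfb2. Ikbkg had a mean of 7110, beside 4112 for G6pdx. Whether reads were counted by strand is not given in the sources used here, so reads from overlapping genes may not have been told apart.

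Position in the genome also moved with the changes. 7 of the 37 genes lie on chromosome 6, and 5 of the 11 that fell (Slc2a3, Hk2, Eno2, Tpi1 and Gapdh) are among them. All 670 tested genes of chromosome 6 had a median log2 fold change of -0.36, and 35.4% of them fell. Pfkl and Hk1 lie on chromosome 10, where the median was -0.30. Tested relative to the median of their chromosome, 6 of the 35 genes were higher, where 16.1% of all tested genes were, and 9 were lower, where 14.3% were. By this measure Gapdh was at -0.44 (edgeR adjusted p = 0.0094), Hk2 at -0.46 (edgeR adjusted p = 0.0308), Slc2a3 at -3.49 (edgeR adjusted p = 0.000465) and Pfkl at -1.02 (edgeR adjusted p = 0.000848), all still past the threshold. The calls for Tpi1 (-0.31, edgeR adjusted p = 0.0534) and Eno2 (-0.92, edgeR adjusted p = 0.0745) were lost.

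Several genes went against their surroundings. Pfkm rose on chromosome 15, where the median was -0.33, and stood at 0.90 relative to it. Among the 20 tested genes nearest to Pfkm, leaving out the genes described here, 18 had a negative change, with a median of -0.53. Pdk4 rose on chromosome 6 (2.68 relative to its median) beside neighbours with a median of -0.64. Slc16a3 fell on chromosome 11, where the median was 0.27, and stood at -1.10 relative to it (edgeR adjusted p = 0.000146). Slc2a1 and Pfkfb3 lie on chromosomes with medians of 0.03 and -0.05, and their changes relative to those were -0.64 and -0.92. For Pfkp, in contrast, the 20 nearest genes had a median of 0.53, about as large as its own change of 0.55. For Pfkl 18 of the 20 nearest genes were negative, with a median of -0.58 beside its own -1.31. Chromosomes 18 and Y are among those that hold none of the genes described here. The median was 0.64 over all tested genes of chromosome 18 and -6.89 over the 6 tested genes of chromosome Y. A difference in gene copy number between the lines was not tested.

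**Figure D4:**
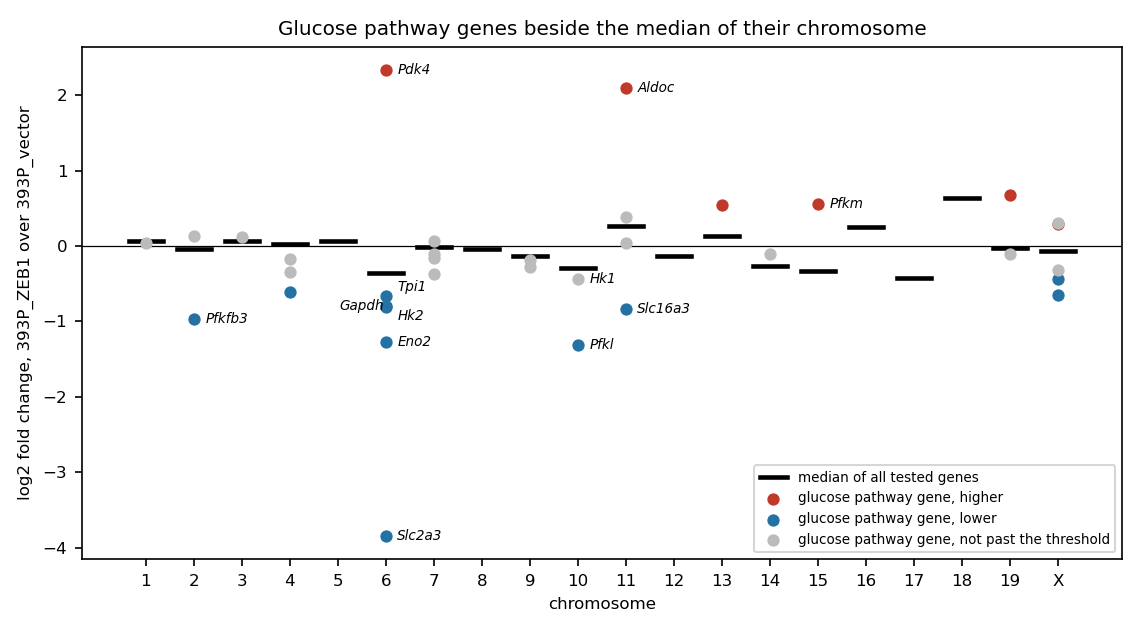
Log2 fold change of the 35 tested genes by chromosome (points, coloured by the edgeR call) beside the median of all tested genes of each chromosome (black bars). Chromosome Y is left out. The bar of chromosome 6 is at -0.36, with 5 of the 11 lower genes below it, while Pfkm and Pdk4 lie above and Slc16a3 below the bars of chromosomes 15, 6 and 11.

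The other genes of glucose metabolism and its regulation were taken as 97 genes in 8 lists, and all were listed in the files. Of the 75 that passed the filter, 11 rose and 26 fell, where 18.3% and 19.3% of all tested genes did, and their median log2 fold change was -0.13. Without 393P_vector replicate 3 these counts were 14 and 29 (26.2% and 26.8% of all tested genes), and relative to the median of their chromosome 11 were higher and 19 lower (16.1% and 14.3% of all tested genes). Of 5 other glucose transporters tested, Slc2a9, a urate and hexose carrier, rose (2.18) and 3 fell, among them Slc2a5, the fructose transporter (-1.47), and Slc2a4, the insulin-responsive GLUT4 (-1.34). The largest increase was that of Gpd1, which turns dihydroxyacetone phosphate into glycerol-3-phosphate (log2 fold change 3.82, edgeR adjusted p = 7.32e-06), and 5 of the 14 tested genes of the same list, other glycolytic enzymes, fell. In the pentose phosphate list 4 of 8 fell, with the largest decreases in H6pd, the dehydrogenase of the endoplasmic reticulum (-1.48), and Rpia, ribose-5-phosphate isomerase (-1.46). Among genes of pyruvate and lactate handling, Mpc1, a subunit of the mitochondrial pyruvate carrier, fell by 1.65 on the log2 scale, and Me2, a malic enzyme, rose (0.87). Bsg, the chaperone of MCT1 and MCT4, was at 341, 354 and 608 CPM in 393P_vector samples and at 186, 247 and 234 CPM in 393P_ZEB1 samples, with 393P_vector replicate 3 the highest. It fell by 0.97, and by 0.64 without that replicate. Pygl and Pygm, the liver and muscle glycogen phosphorylases, fell (-2.05 and -1.30), and Gbe1, the glycogen branching enzyme, rose (0.52). The calls for Bsg, Me2 and Gbe1 were lost relative to the median of their chromosome (edgeR adjusted p = 0.0695, 0.401 and 0.262). In the gluconeogenic list G6pc3 rose (0.70) and Fbp2 fell (-1.79). Several of these genes were low. Mean CPM in 393P_vector and 393P_ZEB1 samples was 0.388 and 0.152 for Slc2a4 and 0.327 and 0.096 for Fbp2. It was 0.90 and 0.327 for Slc2a5, 1.525 and 0.369 for Pygl, and 1.19 and 0.483 for Pygm. At such levels depth limits the precision.

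Regulators and hypoxia-responsive genes outside glycolysis did not move in 1 direction. Hif1a, the oxygen-regulated subunit, and Myc did not pass, with log2 fold changes of -0.32 and -0.12 (edgeR adjusted p = 0.218 and 0.411). Without 393P_vector replicate 3 these were -0.08 and -0.18 (edgeR adjusted p = 0.488 and 0.066). Epas1, which encodes HIF2α, rose (2.02, edgeR adjusted p = 0.000341). Its level was low, with a mean of 0.277 CPM in 393P_vector samples and 1.13 CPM in 393P_ZEB1 samples. Arnt, the shared partner of Hif1a and Epas1, also rose (0.40). Arrdc4, an arrestin-related gene (-1.11), and Mlxip, which encodes the glucose-sensing factor MondoA (-0.76), fell. Txnip rose (0.35, edgeR adjusted p = 0.0257), a call that was lost relative to the median of its chromosome (edgeR adjusted p = 0.0622). Of the 9 regulators tested, 3 rose and 2 fell, where 18.3% and 19.3% of all tested genes did. Of 16 non-glycolytic targets of hypoxia signalling tested, 6 fell and 1 rose, where 19.3% and 18.3% of all tested genes did. Without 393P_vector replicate 3, 7 fell and 1 rose (26.8% and 26.2% of all tested genes). Relative to the median of their chromosome 4 were lower and 3 higher (14.3% and 16.1% of all tested genes). The largest changes were in Car12, a carbonic anhydrase (-3.35), Ndrg1 (-2.06) and Ddit4 (-1.03), with Mxi1, a Myc antagonist, as the one that rose (1.11). Vegfa, P4ha1 and Higd1a also fell (-0.73, -0.46 and -1.005). Their calls were lost relative to the median of their chromosome (edgeR adjusted p = 0.0858, 0.203 and 0.0693). Car9 and Bnip3, also targets of HIF1, did not pass (0.33 and -0.16). Hif1a, Myc, Txnip, Vegfa, P4ha1, Higd1a, Car9 and Bnip3 were named after their values had been seen.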

How the data were processed

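Total RNA of 6 samples, 3 393P_vector and 3 393P_ZEB1, was sequenced on the SOLiD platform after library construction with a total RNA kit, and samples were grouped by the transfected vector given in their labels. For each sample the authors deposited the read count of 24214 features, with an RPKM and a summed exon length. The counts were not normalized. The deposited RPKM values were used only as an alternative for shares. The aligner, the counting program and its strand setting are not given in the sources used here. Coordinates are those of GRCm38.

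Counts were tested with edgeR 4.0.16 in R 4.3.3, with filterByExpr (minimum count 10), TMM normalization, a robust quasi-likelihood fit on the condition and Benjamini-Hochberg adjustment over 13892 genes at 0.05. CPM used TMM-scaled totals. Totals were 57844355, 59735316 and 79158012 (393P_vector) and 54442450, 55159915 and 61251074 (393P_ZEB1). Read counts without molecular identifiers are not independent molecules, so the level of 3 counts covers counting error only. Shares within 8 gene families used counts per kilobase and an exact two-sided permutation test. For the gene followed in each family its p was 0.1 (0.114 adjusted), except for Ldhb (0.6), so none passed 0.05. Promoters came from RefSeq (GRCm38.p6) and were searched for 3 motifs on both strands. The procedure was tested beforehand on simulated counts with known changes. These held no outlying sample like 393P_vector replicate 3, so they did not show how the procedure behaves with such a sample. They also gave every gene the same spread between replicates, smaller than that of the data, and shifted only chromosome 6. Their recovery and error rates therefore do not carry over to these data. Python 3.11.15, pandas 2.3.3, NumPy 2.4.6, SciPy 1.17.1 and matplotlib 3.10.9 were used.

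The genes and lists were chosen with earlier results of these data known. Full statistics are given for genes past the threshold with an absolute log2 fold change of at least 0.5 and for the most counted gene of each role, and at most 4 of the largest changes per list of other genes. Pdha1, G6pdx and the genes whose call changed without 1 sample were named beyond that rule after their values were seen. Alternatives were other normalizations (DESeq2 size factors, upper quartile), the Wald test of DESeq2 1.42.0, limma 3.58.1 with voom and sample weights, other filters, the replicate block, each sample left out, an offset by chromosome median, an adjusted p below 0.01 and a fold change of 1.5. Adding the counts of near-identical copies to Eno1, Aldoa and G6pdx was chosen after seeing the data.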

Additional observations from a re-analysis of the deposited data

How the results depend on the processing

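The number of glucose pathway genes that rose was 6 and the number that fell 11. Under the other normalizations and tools, the filters and the offset, these ranged from 5 to 8 and from 9 to 14, and with each sample left out from 3 (without 393P_ZEB1 replicate 2) to 8 and from 9 to 14 (both highest without 393P_vector replicate 3). A test against a fold change of 1.5 left 2 and 5, and an adjusted p below 0.01 left 3 and 9. Same-numbered samples of the groups had deviations that correlated at r = 0.195, -0.126 and -0.0276, so the numbers were not taken to pair them, and with the replicate number as a block 4 rose and 10 fell. Changes that reversed were of genes that had not passed: Pfkfb2 (-0.0038 with voom, -0.024 with the offset, -0.0074 to 0.084 with samples left out), Eno3 (-0.0097, -0.22, and -0.085 to 0.17), Ldha (-0.077 with voom, -0.097 to 0.19 with samples left out), Slc16a1 (-0.0030 with voom) and Tkt (0.16 with the offset). The cause was not tested. Without length scaling the difference in share, in percentage points, was 1.21 for Slc2a1, 10.5 for Pfkp, 2.61 for Aldoc, -0.198 for Eno2 and 5.9 for Pdk1, and that of Ldhb ranged from -0.00921 to 0.00314 with samples left out. With copies added, the log2 fold changes of Aldoa and G6pdx were -0.10 and -0.43. Slc2a3, Eno2, Ldhb, Pdk4 and Fbp1 lay near or below 2 CPM, where depth limits the precision.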
